A study of Mus musculus with 4 samples.

Results

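Costimulatory and checkpoint genes of the immunoglobulin superfamily were examined in chromatin immunoprecipitation sequencing (ChIP-seq) of histone H3 lysine 4 (H3K4) from activated mouse B cells. The 10 genes were Ctla4, Cd28, Icos, Btla and Pdcd1, which encode receptors, and Icosl, Cd80, Cd86, Cd274 and Pdcd1lg2, which encode ligands, out of 22367 protein-coding genes annotated in GENCODE vM1. Ctla4 was selected on its promoter ratio between these same libraries, and the other 9 were chosen by their place in the same pathway, with earlier results of these data known. The ratio of Ctla4 is therefore a description and supports nothing further. Promoter windows reached 1 kb to either side of every annotated transcription start site (TSS), and each gene was represented by its most covered TSS, judged on both libraries together. A gene was compared between libraries where both together held 50 or more reads, which 7 of the 10 genes did. Cd28, Icos and Pdcd1lg2 did not. The fewest reads among the 7 were 159, at Pdcd1, and the most among the other 3 were 9, at Cd28.

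The study compared PA1-KO with PA1-WT activated B cells. PA1 works with PTIP beside the H3K4 methyltransferases MLL3 and MLL4. Each genotype had 1 library, with 5259995 nuclear reads for the knockout and 5539475 for the wild type. In both groups B cells came from spleens of mice aged 6 to 14 weeks, after removal of cells bearing CD43, and were cultured for 2 days. The culture held LPS at 25 µg/ml, with either dextran-coupled antibody to IgD at 2.5 ng/ml or IL-4 at 5 ng/ml. The labels of these 2 samples name neither the stimulus used nor the methylation state of H3K4, and they give no PA1 allele, no Cre driver and no number of mice. A further 2 samples, which carry LPS with dextran in their labels, were not analysed here.

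T cells and antigen-presenting cells exchange these signals at their contact. CD28 and ICOS, on T cells, deliver costimulation when they bind CD80 or CD86 and the ICOS ligand, while CTLA-4 competes for CD80 and CD86 and PD-1 (Pdcd1) binds PD-L1 (Cd274) and PD-L2 (Pdcd1lg2) to restrain the response. Activated B cells display CD80, CD86, the ICOS ligand and PD-L1, and they carry the inhibitory receptor BTLA, whereas CD28, ICOS and CTLA-4 are best known from T cells. H3K4 methylation marks promoters and enhancers that are active or poised.

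A few stretches of sequence show where the results fall, from NCBIM37, the assembly that mm9 also is. They are the 250 bases before the most upstream coding start site of Ctla4, the gene with the highest ratio among those compared, of Icosl, the gene with the lowest, of Btla, the gene with the most reads, and of Cd28, an unmarked neighbour of Ctla4, together with 200 bases at the centre of a second H3K4 peak inside Ctla4. All run 5′ to 3′ on the plus strand, which is the gene strand of all 4 genes, and capitals mark CpG dinucleotides. The positions, in the same order, are chr1:60965619-60965868, chr10:77531855-77532104, chr16:45224178-45224427, chr1:60802952-60803201 and chr1:60968126-60968325. The last overlaps no annotated exon. The start site behind the sequence lies 146 bp upstream of the one used for counts at Ctla4, and at 45224428 where counts used 45224450 at Btla, while Icosl and Cd28 have the same site for both.
Ctla4 promoter: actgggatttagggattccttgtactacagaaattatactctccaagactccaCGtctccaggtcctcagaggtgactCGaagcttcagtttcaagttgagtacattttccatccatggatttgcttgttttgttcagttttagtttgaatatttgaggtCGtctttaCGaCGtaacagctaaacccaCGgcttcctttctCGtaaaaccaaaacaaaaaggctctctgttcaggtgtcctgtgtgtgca
Icosl promoter: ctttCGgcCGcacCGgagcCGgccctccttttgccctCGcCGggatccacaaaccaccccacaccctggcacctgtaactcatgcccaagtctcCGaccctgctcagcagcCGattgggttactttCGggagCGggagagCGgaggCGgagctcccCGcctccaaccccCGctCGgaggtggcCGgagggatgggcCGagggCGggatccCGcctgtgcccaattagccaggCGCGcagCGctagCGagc
Btla promoter: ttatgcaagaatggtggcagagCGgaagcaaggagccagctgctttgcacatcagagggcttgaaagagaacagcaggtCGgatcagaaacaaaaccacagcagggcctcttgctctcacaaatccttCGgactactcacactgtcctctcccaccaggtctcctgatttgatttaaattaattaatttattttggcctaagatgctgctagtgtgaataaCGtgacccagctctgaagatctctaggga
Cd28 promoter: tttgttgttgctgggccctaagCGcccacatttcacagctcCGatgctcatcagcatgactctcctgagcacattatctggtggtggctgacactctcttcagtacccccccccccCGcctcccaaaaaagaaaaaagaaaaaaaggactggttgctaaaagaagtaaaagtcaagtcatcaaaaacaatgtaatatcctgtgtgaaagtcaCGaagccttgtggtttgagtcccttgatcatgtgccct
Ctla4 intragenic peak: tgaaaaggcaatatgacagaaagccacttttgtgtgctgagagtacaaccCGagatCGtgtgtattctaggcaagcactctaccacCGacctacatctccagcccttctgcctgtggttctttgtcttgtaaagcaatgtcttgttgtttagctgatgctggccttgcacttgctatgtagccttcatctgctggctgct

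The Icosl stretch held 23 CpG dinucleotides, against 7 at Ctla4, 4 at Btla and 4 at Cd28. Over 22362 promoters the median was 10 CpG per 250 bases, with quartiles of 3 and 21. Btla and Cd28 both had 4 CpG and stood near opposite ends of the range of reads among the 10 genes. A relation between the number of CpG and the H3K4 level was not tested. A set of 6 motifs was searched on both strands of the same 250 bases: the AP-1 site TGANTCA, the STAT site TTCNNNGAA, the STAT6 site, which is TTC and GAA parted by 4 bases, the NFAT core GGAAA, the TATA box TATAAA, and the NF-kB consensus. Ctla4 held 1 NFAT core, a motif found in 53.9% of all promoters, and none of the other 5, and Cd274 and Pdcd1 held 2 NFAT cores each. Icosl, Btla, Cd28, Icos and Cd86 held none of the 6. Cd80 held 1 AP-1 site (5.72% of all promoters), and Pdcd1lg2 held 1 STAT6 site (5.21%), 1 NF-kB consensus (4.32%) and 1 NFAT core. The STAT site occurred in 6.56% of all promoters and the TATA box in 11.3%, and neither occurred in these 250 bases at any of the 10 genes. An NFAT core can lie inside a match to the NF-kB consensus.

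Values below are reads, or normalized RPM, which are reads per 1000000 nuclear reads after TMM scaling, which takes a trimmed mean of the log ratios over promoters. Every promoter window spans 2 kb, so promoter levels can be compared between genes. Ratios are knockout over wild type, with an exact 95% interval that covers counting error between these 2 libraries only. The rule for higher or lower asked for a ratio of 1.5-fold or more and an interval that excluded 1. No replicate stands behind any value, so no test between genotypes was made. In a bulk sample, fewer cells carrying a mark and less mark per cell cannot be told apart. At the targeted gene, 2900092E17Rik (PA1), the promoter held 114 knockout against 261 wild-type reads, for a ratio of 0.498 (0.397 to 0.624), which does not check the genotype label because the labels do not say which part was deleted.

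Among the 7 genes compared, 1 was higher in the knockout library and 0 were lower, while 0.665% of the 12186 promoters compared genome-wide were higher and 4.90% were lower. The 1 higher gene was Ctla4, which was chosen for that ratio. The median log2 ratio of the 7 was 0.24, the value of Cd80. Over all promoters the median was 0.00, with 5% and 95% quantiles of −0.62 and 0.33. With libraries scaled to background, the ratio of Cd80 was 0.952, below 1, and the median log2 ratio of all promoters moved to −0.31. By ratio, counted from the highest of 12186, Ctla4 stood at 3, Cd274 at 308, Btla at 1335, Cd80 at 1452, Cd86 at 4193, Pdcd1 at 8791 and Icosl at 10975.

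**Figure D1:**
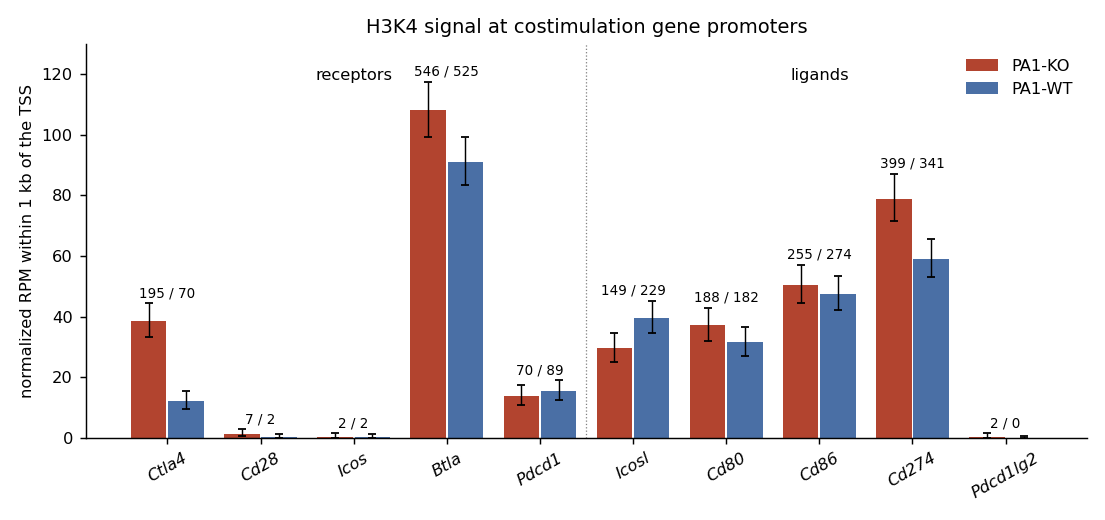
Normalized RPM within 1 kb of the TSS for the 10 genes, receptors on the left and ligands on the right, with PA1-KO and PA1-WT bars and exact 95% Poisson intervals for counting error. Raw reads of both libraries stand above each pair, and the bars part most widely at Ctla4, with 195 knockout against 70 wild-type reads.

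Ctla4 (ENSMUSG00000026011.6), the inhibitory receptor that shares its ligands with CD28, lies on the plus strand of chromosome 1. Its promoter, at TSS 60966015 in mm9, held 195 reads in the knockout library and 70 in the wild-type library, which is 38.6 normalized RPM (33.4 to 44.4) against 12.1 (9.46 to 15.3). The ratio was 3.18 (2.41 to 4.24), the value Ctla4 was selected on. Split by strand, the same reads numbered 90 knockout against 36 wild-type on the plus strand, and 105 and 34 on the minus strand. This split adds no support, because it only divides the reads behind the selection. The coding start site 146 bp upstream, which the printed sequence precedes, gave 183 knockout against 67 wild-type reads in a window that overlaps the first. The start of a noncoding transcript farther upstream, at 60943844, held 0 knockout reads and 1 wild-type read. By reads in both libraries together the Ctla4 promoter stood at percentile 23.5 of the 12186 promoters compared, and in the knockout library it came to the level of Cd80.

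Cd28 (ENSMUSG00000026012.2), the main costimulatory receptor of T cells, held 7 knockout against 2 wild-type reads at TSS 60803202. That is 1.39 normalized RPM (0.557 to 2.85) against 0.347 (0.042 to 1.25), and the ratio of 3.99 has an interval from 0.761 to 39.4. Icos (ENSMUSG00000026009.8), the inducible costimulator, held 2 reads in each library at TSS 61034771. Both promoters were close to empty in both libraries, and a difference between genotypes was not detectable at this depth.

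Btla (ENSMUSG00000052013.7, chromosome 16, TSS 45224450), an inhibitory receptor that B cells express, had the most reads of the 10 genes in both libraries. It held 546 knockout against 525 wild-type reads, or 108.1 normalized RPM (99.2 to 117.5) against 91.0 (83.4 to 99.2), a ratio of 1.19 (1.05 to 1.34). This promoter stood at percentile 99.5 of the promoters compared by reads, and its ratio stayed under 1.5-fold. Pdcd1 (ENSMUSG00000026285.6, chromosome 1, minus strand, TSS 95949130), which encodes PD-1, held 70 knockout against 89 wild-type reads, or 13.9 (10.8 to 17.5) against 15.4 normalized RPM (12.4 to 19.0). Its ratio was 0.898 (0.647 to 1.24), and the intervals of the 2 levels overlap.

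Among the ligands, Icosl (ENSMUSG00000000732.7, chromosome 10, TSS 77532105), the ligand of ICOS, had the lowest ratio. It held 149 knockout against 229 wild-type reads, or 29.5 normalized RPM (24.9 to 34.6) against 39.7 (34.7 to 45.2), a ratio of 0.743 (0.600 to 0.917). The interval excludes 1 but the ratio stayed within 1.5-fold. It passed that threshold at 0.600 when libraries were scaled to background and at 0.639 with a window of 2 kb either side. With the trend of the ratio with GC content removed it was 0.820 (0.662 to 1.012), and with the trends with GC content and level both removed it was 0.825 (0.666 to 1.018), so both of those intervals include 1.

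Cd80 and Cd86 encode the B7 ligands that CD28 and CTLA-4 share. Cd80 (ENSMUSG00000075122.3, chromosome 16, TSS 38459193) held 188 knockout against 182 wild-type reads, or 37.2 (32.1 to 42.9) against 31.6 normalized RPM (27.1 to 36.5), a ratio of 1.18 (0.956 to 1.45). Cd86 (ENSMUSG00000022901.6, chromosome 16, minus strand, TSS 36666163) held 255 and 274 reads in the knockout and wild-type libraries, or 50.5 (44.5 to 57.1) against 47.5 normalized RPM (42.0 to 53.5), a ratio of 1.06 (0.892 to 1.26). Both intervals of the ratio include 1. A second coding start site of Cd86, at 36642891, held 67 knockout against 64 wild-type reads.

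Cd274 (ENSMUSG00000016496.7, chromosome 19, TSS 29441945), which encodes PD-L1, had the second highest ratio of the 7. It held 399 knockout against 341 wild-type reads, or 79.0 normalized RPM (71.4 to 87.1) against 59.1 (53.0 to 65.8), a ratio of 1.34 (1.15 to 1.55). The intervals of the 2 levels do not overlap, and the ratio stayed under 1.5-fold. Reads of Cd274 and of 5033414D02Rik, an annotated gene that overlaps its start, cannot be told apart. Pdcd1lg2 (ENSMUSG00000016498.9, TSS 29485409), which encodes PD-L2 and starts 43.5 kb from Cd274, held 2 knockout against 0 wild-type reads at its promoter, or 0.396 (0.0479 to 1.43) against 0 normalized RPM (0 to 0.640).

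In the knockout library the order of promoter levels was Btla, Cd274, Cd86, Ctla4, Cd80, Icosl, Pdcd1, Cd28, then Icos and Pdcd1lg2 level. Ctla4 and Cd80 did not differ beyond counting error there, with a ratio of 1.04 (0.845 to 1.27), and neither did the last 3. In the wild-type library the order was Btla, Cd274, Cd86, Icosl, Cd80, Pdcd1, Ctla4, with Cd28 and Icos level and Pdcd1lg2 last. Pdcd1 and Ctla4 did not differ beyond counting error there, with a ratio of 1.27 (0.919 to 1.77), nor did the last 3. Ctla4 thus stood above Icosl in the knockout library and below it in the wild-type library, and it stood above Pdcd1 in the knockout library.

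Ratios of ratios between 2 genes do not depend on how the libraries are scaled. They do depend on trends with GC content or level, which were not removed here. The knockout over wild-type ratio of Ctla4 was 4.27 times that of Icosl (3.00 to 6.13), 3.53 times that of Pdcd1 (2.29 to 5.48) and 2.99 times that of Cd86 (2.15 to 4.19). It was 2.69 times that of Cd80 (1.89 to 3.85), 2.68 times that of Btla (1.97 to 3.66) and 2.38 times that of Cd274 (1.73 to 3.29). All 6 contain the ratio Ctla4 was selected on and are given as descriptions. Between ligands, the ratio of Icosl was 0.556 times that of Cd274 (0.429 to 0.721). With the GC trend removed, the ratios of Ctla4, Icosl and Cd274 were 2.61, 0.820 and 1.14. These lie closer together than the 3.18, 0.743 and 1.34 as reported.

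**Figure D2:**
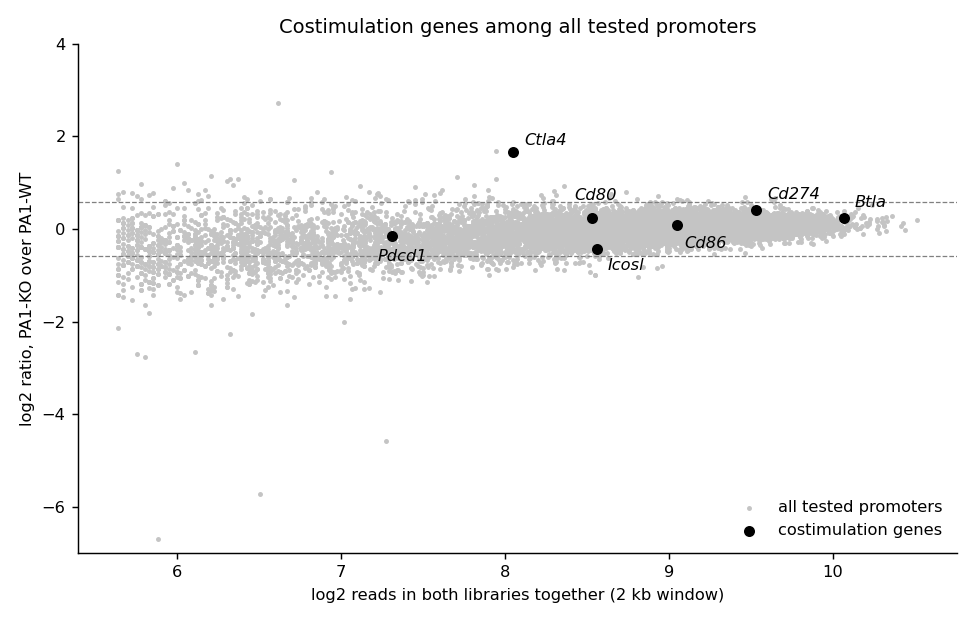
Log2 ratio of PA1-KO over PA1-WT against the log2 of reads in both libraries together, for the 12186 promoters compared (grey) and the 7 costimulation genes compared (black). Dashed lines mark 1.5-fold, and Ctla4 at 1.67 is the 1 black point outside them.

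The higher signal at Ctla4 did not stop at the promoter. The 1 kb before the TSS held 41 knockout against 21 wild-type reads, for a ratio of 2.23 (1.29 to 3.97). The 1 kb after it held 154 and 49, a ratio of 3.59 (2.58 to 5.05), and the stretch 1 to 4 kb downstream held 163 and 37, a ratio of 5.03 (3.50 to 7.39). The ratio was smaller 4 to 8 kb downstream, at 1.59 (1.09 to 2.32) from 71 knockout against 51 wild-type reads. From 1 to 4 kb upstream each library held 1 read.

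Enriched islands were called with both libraries pooled. Around Ctla4, an island over the TSS (1400 bp, chr1:60965601-60967000) held 193 knockout against 69 wild-type reads, for a ratio of 3.19 (2.41 to 4.27). A second island inside the gene, centred 2.09 kb downstream (1400 bp, chr1:60967401-60968800), held 124 knockout against 25 wild-type reads, which is 24.5 (20.4 to 29.3) against 4.33 normalized RPM (2.81 to 6.40). Its ratio was 5.66 (3.66 to 9.08), and it was 1.77 times that of the promoter island (1.04 to 3.09). The pooled call needed 9 reads in a 200 bp window, and the tallest wild-type bin of 200 bp in that stretch held 8. The second island thus rests on its knockout reads, which can raise both values, and they are given as descriptions. Another 2, weaker islands flanked the gene's marked part. The island 5.71 kb upstream held 23 knockout against 15 wild-type reads, and that 7.29 kb downstream, past the gene end, held 20 and 26, with intervals of the ratio from 0.875 to 3.61 and from 0.465 to 1.64. With the same threshold of 7 reads per 200 bp applied to each library alone, the marked length around the Ctla4 TSS was 3000 bp in the knockout library and 1200 bp in the wild-type library. Marked length sums all windows past the threshold, here 15 and 6, which need not adjoin. A fixed threshold also makes this length follow the read level. The tallest 200 bp bin lay 100 bp after the TSS with 49 reads in the knockout library, and 100 bp before it with 17 reads in the wild-type library.

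**Figure D3:**
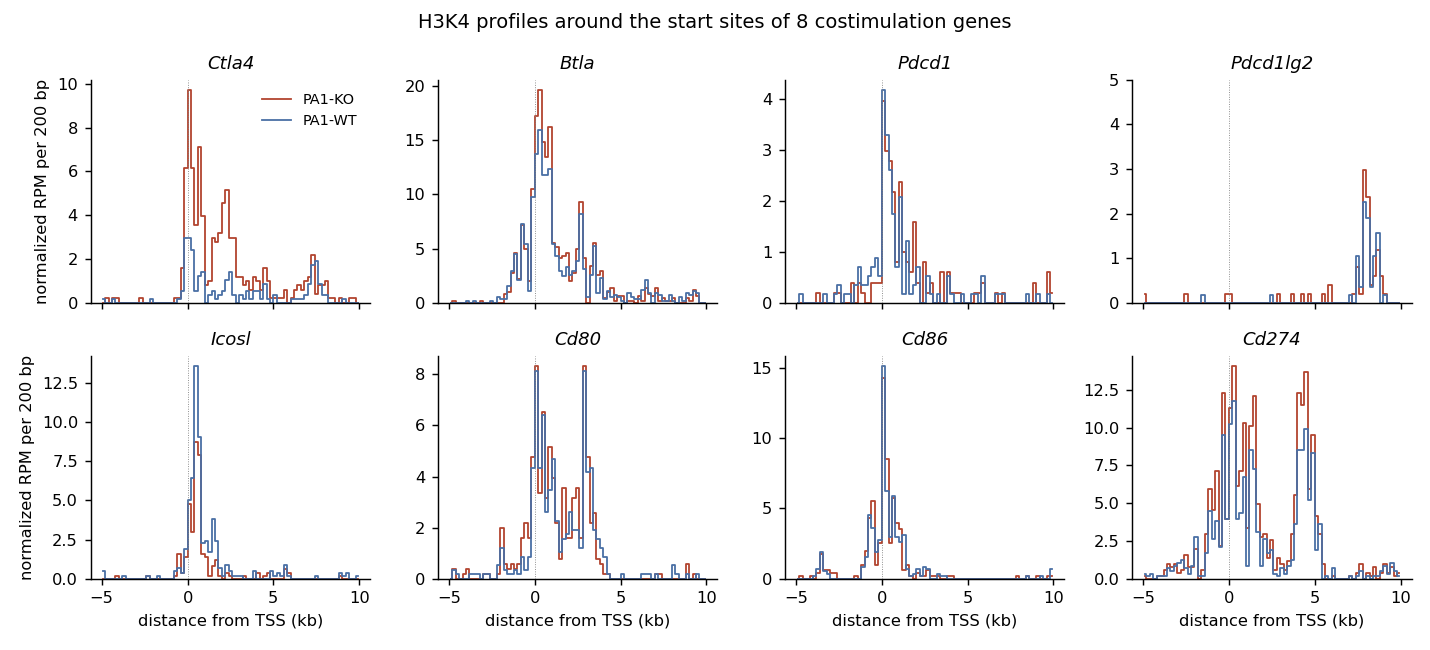
Normalized RPM per 200 bp from 5 kb before to 10 kb after the TSS for 8 genes, PA1-KO in red and PA1-WT in blue, each panel with its own vertical scale. At Ctla4 the knockout line lies above the wild-type line over the promoter and the peak near 2.09 kb, while at Icosl the wild-type line lies above and runs farther downstream.

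Icosl showed the opposite shape. Its 2600 bp island over the TSS (chr10:77531401-77534000) held 167 knockout against 290 wild-type reads, for a ratio of 0.657 (0.540 to 0.798). The whole island was thus lower by the 1.5-fold rule as reported, although the 2 kb promoter window was not. Islands were not recomputed with the GC trend removed, which moved the promoter ratio of Icosl from 0.743 to 0.820. Whether the island would stay past the rule without that trend was not tested. Intervals below 1 were found downstream of the TSS. Reads numbered 131 in the knockout and 209 in the wild-type library over the 1 kb after it, a ratio of 0.715 (0.570 to 0.894). Over the stretch 1 to 4 kb downstream they numbered 23 and 79, a ratio of 0.332 (0.199 to 0.534). Upstream, the first 1 kb had only 18 and 20. Its ratio was 1.03, and the interval, 0.512 to 2.05, also contains 0.715. A difference before the TSS is therefore left undecided. The marked length was 1400 bp in the knockout library and 2200 bp in the wild-type library. In both libraries the tallest bin lay 500 bp after the TSS, with 44 knockout against 78 wild-type reads.

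The other marked genes kept closer lengths. Marked lengths in the knockout and wild-type libraries were 5400 and 5000 bp at Btla, 6200 and 6000 bp at Cd274, 4400 and 4200 bp at Cd80, 2200 and 2800 bp at Cd86, and 1400 bp in both at Pdcd1. Cd274 carried an island of 4400 bp over its TSS with 660 knockout against 537 wild-type reads, for a ratio of 1.40 (1.25 to 1.58). The stretch 1 to 4 kb after the Cd274 TSS, with 270 knockout against 197 wild-type reads, passed 1.5-fold at 1.56 (1.30 to 1.89). A second Cd274 island centred 4.46 kb downstream, where no other gene is annotated, held 353 and 297 reads, a ratio of 1.36 (1.16 to 1.59). Btla carried an island of 5400 bp with 894 knockout against 863 wild-type reads (1.18, 1.08 to 1.30), and Cd80 carried an island of 4800 bp with 393 and 414 reads (1.08, 0.941 to 1.25). The 1 kb before the Cd80 TSS passed 1.5-fold at 1.62 (1.05 to 2.52), with 54 knockout against 38 wild-type reads, while the 1 kb after it stood at 1.06 (0.833 to 1.35). Stretches were not recomputed under other processing choices for any gene, nor set beside the same stretches of all promoters. Those past 1.5-fold are therefore given as descriptions.

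Within the genes and 20 kb on either side lay 34 islands, of which 2 were higher and 3 were lower in the knockout library, beside 3.35% of all 24957 islands higher and 5.39% lower. Both higher islands were those of Ctla4. The 3 lower ones were the Icosl island above and 2 islands inside genes away from their start sites. Pdcd1lg2, with an empty promoter, carried an island centred 44.1 kb after its annotated TSS (1400 bp, chr19:29528801-29530200) that held 37 knockout against 96 wild-type reads. The 200 bases around the tallest point of this island overlapped a coding exon of the gene. The island's ratio was 0.440 (0.293 to 0.649), while another Pdcd1lg2 island 7.79 kb after the TSS held 31 and 32 reads. Cd86 carried a small island 30.7 kb after its TSS with 7 knockout against 22 wild-type reads, for a ratio of 0.363 (0.131 to 0.880). No island lay within 20 kb of Cd28, nor of Icos.

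Cd28, Ctla4 and Icos are neighbours on chromosome 1, all on the plus strand, with Ctla4 162.8 kb after Cd28 and 68.8 kb before Icos. A 350 kb window over the 3 genes held 802 knockout against 526 wild-type reads, for a ratio of 1.74 (1.56 to 1.95). The stretch from 1 kb before the Ctla4 TSS to the end of Ctla4, 7.66 kb long, held 394 and 122 of these, which is 49.1% of the window's reads in the knockout library and 23.2% in the wild-type library. The remaining 342.3 kb held 408 knockout against 404 wild-type reads, or 1.19 and 1.18 reads per kb, a ratio of 1.15 (1.002 to 1.33). The difference was thus concentrated over Ctla4, the gene the window was drawn around. The Cd28 gene with 1 kb before it held 42 knockout against 26 wild-type reads over 57.6 kb, a ratio of 1.84 (1.10 to 3.13) at 0.729 and 0.451 reads per kb, which is under the genome's 1.98 and 2.09. The Icos gene with 1 kb before it held 10 and 7 reads. Genome-wide, reads outside islands and promoter windows numbered 1306134 in the knockout and 1203686 in the wild-type library. With TMM scaling such background therefore stands above a ratio of 1. The ratios of the Cd28 gene and of the remaining 342.3 kb were not scaled to background, and no difference there is read from them.

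Of the window's 350 bins of 1 kb, 15 held 20 or more reads in both libraries together, and 8 of these were higher and 1 was lower in the knockout library. Over the genome 6.00% of such bins were higher and 5.20% were lower. The window was chosen with the Ctla4 ratio known, so nothing is read from its count. The 8 higher bins were centred from −5.51 to 6.49 kb relative to the Ctla4 TSS. The largest ratio among them was 7.56 (3.57 to 18.4), in the bin centred 1.49 kb after the TSS, from 53 knockout against 8 wild-type reads. The bin with the most reads, centred 0.49 kb after the TSS, held 155 and 51. The 1 lower bin was centred at −103.51 kb from the Ctla4 TSS, between Cd28 and Ctla4, with 11 knockout against 29 wild-type reads, at a ratio of 0.433 (0.195 to 0.893). In 128 bins both libraries had 0 reads.

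**Figure D4:**
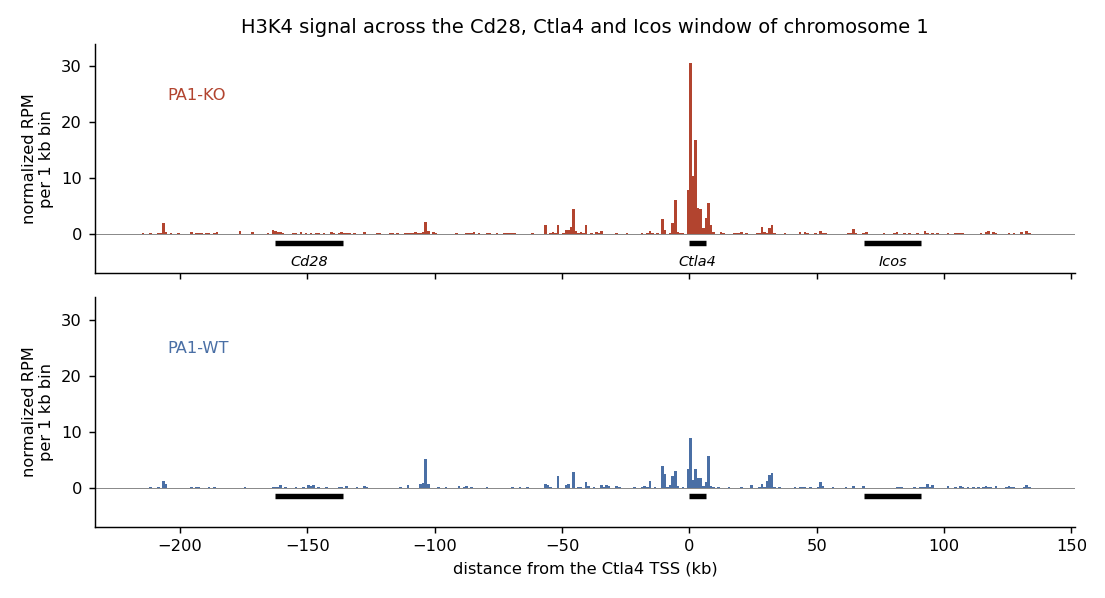
Normalized RPM per 1 kb bin over the 350 kb window, PA1-KO above and PA1-WT below on the same scale, against distance from the Ctla4 TSS in kb, with black bars for the 3 genes drawn from the TSS used. The knockout panel is tallest over Ctla4, where the bin centred at 0.49 kb held 155 knockout against 51 wild-type reads, and Cd28 and Icos carry little signal in both panels.

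The nearest compared promoters outside the window were not higher. Abi2 and Raph1, on the side of Cd28, had ratios of 1.20 (0.898 to 1.61) and 0.863 (0.646 to 1.15). On the side of Icos, Pard3b was lower at 0.633 (0.477 to 0.836), and Nrp2 stood at 0.831 (0.641 to 1.07). At the Ctla4 promoter 5.13% of knockout reads (10 of 195) and 5.71% of wild-type reads (4 of 70) mismatched the reference, beside 8.04% and 7.34% over the genome. In the intragenic island 13 of 124 knockout reads and 0 of 25 wild-type reads did. The part of mismatched reads in the results was not tested.

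Among 3083 promoters with reads within 1.5 times those of Ctla4, the 5 nearest to it in log2 ratio were named by rule. Igj, the gene of the antibody J chain, was nearest, with 182 knockout against 64 wild-type reads, at a ratio of 3.25. Birc2, an inhibitor of apoptosis, followed at 2.17, then 4930481A15Rik at 2.14, the chemokine receptor gene Cxcr7 at 1.95 and the caspase gene Casp4 at 1.90. The measure is the difference of 1 log2 ratio per gene between 2 libraries.

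In other costimulation and checkpoint lists no compared gene was higher by the 1.5-fold rule as reported, beside 0.665% of all promoters compared. Of 14 TNF family costimulation genes 8 were compared, with 0 higher, 1 lower and a median log2 ratio of −0.08, beside 0.00 over all promoters. The lower gene was Cd70, the ligand of CD27, with 24 knockout against 52 wild-type reads, at a ratio of 0.527 (0.310 to 0.870). With 500 bp either side 0 genes of the list were lower. Without the level trend, or without both trends, 0 were lower and 1 was higher, and 2 were lower when scaled to total reads or to background and with a minimum of 20 reads or none. Tnfrsf18, which encodes GITR, had the next lowest ratio at 0.708, and the highest were Tnfsf14 at 1.44 (0.842 to 2.48) and Cd40, the receptor through which T cells help B cells, at 1.11. Tnfrsf14, which encodes HVEM, the ligand of BTLA, held 381 and 427 reads, a ratio of 1.02.

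Of 24 other immunoglobulin family coreceptors and ligands 18 were compared, with 0 higher, 1 lower and a median of 0.02. The lower gene was Cd244, a SLAM family receptor, with 29 knockout against 56 wild-type reads, at a ratio of 0.591 (0.364 to 0.942). Without the level trend, or without both trends, 0 genes of the list were lower, while 2 were when scaled to total reads or with 2 kb either side and 4 when scaled to background. The highest were Slamf6 at 1.37 (1.20 to 1.56) and Ly9 at 1.33 (1.11 to 1.59), both also SLAM family receptors, and Cd276, a B7 family ligand, stood at 0.663. Of 22 genes for signalling below CD28, CTLA-4 and PD-1, 20 were compared and 0 passed the rule in either direction, with a median of −0.05. Their ratios ran from Lcp2 at 0.839 and the exchange factor Vav1 at 0.844 to the kinase genes Pik3cd and Dgka at 1.15 each.

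Markers of other cells were read beside Ctla4, since T cells also carry this gene. The 11 T cell promoters summed to 440 knockout against 453 wild-type reads, of which Cd2 alone gave 407 and 382, at a ratio of 1.22. The sums thus mainly report Cd2 and say little about the other T cell promoters. Of the 11, 8 held 10 or fewer reads in both libraries together. Among these Cd3d, Cd3e and Cd3g held 0, 1 and 1 knockout reads and 2, 0 and 3 wild-type reads, and Foxp3 held 0 and 1. Thy1 had too few reads to be compared, at 7 in the knockout against 21 in the wild type, and the interval of its ratio ran below 1, from 0.137 to 0.929. Lat was lower, with 19 knockout against 40 wild-type reads, at a ratio of 0.542 (0.297 to 0.958). The 10 myeloid and dendritic cell promoters summed to 369 knockout against 663 wild-type reads, with Flt3 at 0.561 and Zbtb46 at 0.455 both lower, Itgam at 1.48 and Cd14 at 0.788 within the rule, and Csf1r at 0 in both libraries. The part of myeloid and dendritic cells in the results was not tested. Calls in the marker lists were not recomputed under the other processing choices. Promoters lower genome-wide, 597 as reported, numbered 135 with both trends removed and 2035 when scaled to background. All 8 B cell markers were compared and none passed the rule in either direction, from Cd22 at 0.925 and Cd79b at 0.980 to Ms4a1 at 1.19 and Pax5 at 1.20, and their median was 455 knockout and 494.5 wild-type reads.

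The ratio of Ctla4 ran from 2.57 to 3.57 over 12 other processing choices and passed the 1.5-fold rule under each. These choices recount largely the reads on which Ctla4 was selected, so the range is a description and adds no support. Directions of genes near a ratio of 1 changed under some choices. Scaled to background, which moved the median log2 ratio of all promoters to −0.31, Btla, Cd80 and Cd86 stood below 1. The same 3 were below 1 with the trend of the ratio with GC content removed. Cd86 was also below 1 when scaled to total reads, at 0.980. Pdcd1 stood above 1 with the trend with level removed, at 1.09, and with both trends removed, at 1.07. The ratio of Cd274 stayed above 1 under all 12, but its interval included 1 when scaled to background (0.931 to 1.25), with the GC trend removed (0.984 to 1.32) and with both trends removed (0.920 to 1.24). The ratio of Icosl stayed below 1 under all 12, with an interval that included 1 when the GC trend or both trends were removed.

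**Figure D5:**
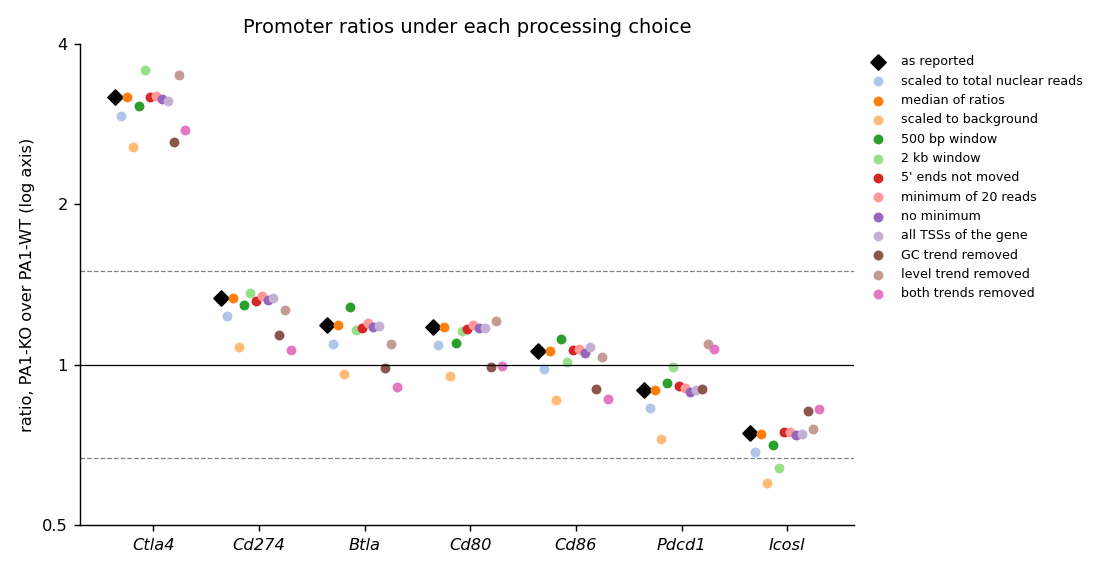
Ratio of PA1-KO over PA1-WT (log axis) for the 7 genes compared, as reported (black diamonds) and under 12 other processing choices (coloured points), with dashed lines at 1.5-fold in each direction. Every Ctla4 point lies above the upper line, between 2.57 and 3.57, and the points of Btla, Cd80, Cd86 and Pdcd1 fall on both sides of 1. The Ctla4 points share most of the reads on which that gene was selected.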

How the data were processed

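Each line of a deposited file gives a mapped read's position and strand and how it matched. The submitters' processing notes name mm9 and SICER without their roles. An aligner was not given in the sources used here. Per the labels' protocols, MNase-digested native chromatin was amplified for 18 PCR cycles and sequenced for 36. Deposited reads span 25 bases. None shares its position and strand with another in its file, so the authors' files no longer held repeats and strong sites are compressed.

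Read 5′ ends were moved 75 bp, and counts were taken at GENCODE vM1 start sites (Python 3.11.15, numpy 2.4.6, pandas 2.3.3, scipy 1.17.1, statsmodels 0.14.6, matplotlib 3.10.9). TMM trimmed 30% on the ratio and 5% on the level. Intervals are conditional binomial (Clopper-Pearson) for ratios and exact Poisson for levels, and intervals of ratios of ratios are conditional and exact. All cover counting error only, because reads amplified by PCR and lacking molecular identifiers need not be independent. Islands joined 200 bp windows past a Poisson probability of 1e-05, taken over 80% of the genome, across gaps of 200 bp and needed 20 reads. No fold is given where both libraries held 3 or fewer reads.

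The members, gene lists and tests were chosen with earlier results of these data known. By rule, the genes named were the 10 members, every listed gene past the rule, the 2 highest and 2 lowest compared genes of each list, and the 5 promoters nearest to Ctla4 in ratio. Outside it, the targeted gene, Tnfrsf14, the uncompared markers Cd3d, Cd3e, Cd3g, Foxp3, Thy1 and Csf1r, and the window's neighbours Abi2, Raph1, Pard3b and Nrp2 were named after their values were seen. Alternatives changed the scaling, window, read shift, read minimum, start site and trends with GC content and level.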

Additional observations from a re-analysis of the deposited data

How the results depend on the processing

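Ctla4 was higher in the knockout library under all 12 alternatives to the promoter processing, which recount largely the reads it was selected on. The number of members lower was 0 as reported and 1, Icosl, both when scaled to background and with a window of 2 kb either side. Scaling moved the median log2 ratio of all promoters by −0.11 (total reads) and −0.31 (background). The genome-wide counts depended far more on these choices. Promoters higher, 81 as reported, numbered 41 scaled to total reads, 17 scaled to background, 141 with 500 bp either side, 131 with no read minimum, 38 without the GC trend, 239 without the level trend and 144 without both trends. Promoters lower, 597 as reported, numbered 947, 2035, 172 and 135 under total scaling, background scaling, removal of the level trend and removal of both trends. The ratio of the 350 kb window was 1.41 scaled to background, and with 2 kb bins 5 were higher and 2 were lower. The cause of these shifts was not tested. The median log2 ratio of the genes signalling below CD28, CTLA-4 and PD-1 was −0.36 scaled to background. Of 290 values computed, 28 are those reported, 220 moved by less than their counting interval or by under 1.5 times for a count, 42 moved by more and 0 reversed a called direction. No paired analysis was possible because each genotype has 1 library, and no replicate could be left out. Genes with few reads, Cd28, Icos and Pdcd1lg2, are limited by depth.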
